A study of Mus musculus with 56 samples.

Results

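The genes described here encode the protein machinery of oxidative phosphorylation in OVA:Kb-specific CD8 T cells of the mouse, the cells that recognize the model antigen shared by a skin graft and a fetus (here TFGS cells). Members were chosen by symbol alone. They comprise every protein-coding nuclear gene whose symbol begins with *Nduf*, *Uqcr*, *Cox4* to *Cox8* or *Atp5*, the 4 *Sdh* genes *Sdha* to *Sdhd*, and the protein-coding genes of the mitochondrial genome. The rule found 111 of the 55359 genes in the count table, of which 98 are nuclear and 13 mitochondrial. Of the 98 nuclear members, 48 belong to complex I by symbol (40 subunits and 8 *Ndufaf* assembly factors), 4 to complex II, 8 to complex III, 19 to complex IV and 19 to complex V (18 subunits and the inhibitor *Atp5if1*). The 13 mitochondrial members encode 7 subunits of complex I, 1 of complex III, 3 of complex IV and 2 of complex V. A further 18 genes matched the symbols but are not annotated as protein-coding and were left out.

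Oxidative phosphorylation takes place in the inner mitochondrial membrane. Complex I oxidizes NADH and complex II oxidizes succinate, electrons pass through complex III and cytochrome c to oxygen at complex IV, and the proton gradient built on the way drives ATP synthesis by complex V. The core membrane subunits of complexes I, III, IV and V are encoded by the mitochondrial genome and transcribed by a polymerase of the mitochondrion, whereas the rest, and all of complex II, are transcribed in the nucleus. Naive CD8 T cells are quiescent, activated CD8 T cells combine glycolysis with respiration, and memory cells are known for their reliance on mitochondrial respiration.

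All mice were C57BL/6 females, and all TFGS cells were sorted from spleen and lymph nodes as 200 cells per library. Naive mice (n = 3) received no treatment. Sensitized mice (n = 4) had rejected an allogeneic 2W-OVA.BALB/c skin graft. Naive+Pregnancy (N+P) mice were taken after a semi-allogeneic pregnancy sired by 2W-OVA.BALB/c males, and their cells were sorted into a PD1- gate (N+P C1, n = 3) and a PD1+CD73+ gate (N+P C5, n = 3). Sensitized+Pregnancy (S+P) mice had both the graft and the pregnancy, and their cells were sorted into a PD1- gate (S+P C4, n = 6), a PD1+CD73+ gate (S+P C5, n = 6) and a PD1+CD73- gate (S+P C7, n = 5). The antigen is a transgene product of the donor, only T cells of 1 specificity were followed, and the gates select on surface proteins, so that a gate is a subset of a mouse's TFGS cells and not all of it. RNA was amplified by SmartSeq2, which carries no molecular identifiers, and all libraries shared 1 sequencing run. In such bulk samples, fewer cells of a type and less RNA per cell cannot be told apart.

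The table held 56 technical libraries, of which 53 were used, and the 30 samples made from them held 15547934 to 54809406 counts each, with 7436 to 26805 genes detected. The samples S+P C4 replicate 2, S+P C4 replicate 3 and S+P C7 replicate 3 stood apart with 8002, 7436 and 7879 genes, against at least 12383 in every other sample. These 3 belong to 7 samples that rest on 1 library each, and those 7 are also the samples with the fewest genes. The same counts were deposited for 1 library of Naive replicate 1 and for 1 of S+P C4 replicate 1, and this library was left out of both. S+P C7 replicates 1 and 2 were nearly identical (r = 0.9979 across genes) and were counted as 1 sample. All 7 defining CD8 T cell markers were present, with a summed level of 5804 to 15020 CPM (counts scaled by the sample's total and its TMM normalization factor, so that CPM and shares of counts are on different scales). Markers of erythroid cells summed to 19870 CPM in S+P C7 replicate 3, to 418.5 CPM in S+P C4 replicate 3 and to at most 210.3 CPM elsewhere. Markers of NK cells summed to 873.6 CPM in S+P C7 replicate 3 and to at most 144.6 CPM elsewhere, and myeloid markers to 344.6 CPM in Sensitized replicate 1 and to at most 114.2 CPM elsewhere. The part of these cells in the results was not tested.

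The mitochondrial genome gave very uneven counts for its 13 protein-coding genes. *mt-Co1* (the catalytic subunit of complex IV), *mt-Cytb* (a haem-carrying subunit of complex III) and *mt-Nd1* (a membrane-arm subunit of complex I) reached mean levels of 5955, 5900 and 5295 CPM per kb of exon. Together these 3 genes held 73.7 to 87.2% of all mitochondrial member counts in a sample (mean 83.1%). At the other end, *mt-Nd3* had a mean level of 0.964 CPM per kb, and 248 counts in all 30 samples together against 8061499 for *mt-Co1*. The genes of low count lie side by side in the circle. *mt-Co2*, *mt-Atp8*, *mt-Atp6*, *mt-Co3*, *mt-Nd3* and *mt-Nd4l* fill the stretch from chrM:7013-10173 and had 17811, 1084, 12603, 17989, 248 and 388 counts in total. In contrast, *mt-Nd4*, *mt-Nd5*, *mt-Nd2* and *mt-Nd6* outside or at the edge of it had 955176, 1475073, 587931 and 252090.

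The same stretch exists a second time in the nuclear genome of GRCm39. A copy of 4654 bases on the minus strand of chr1:24650616-24655269 matches chrM:6390-11042 at 99.94% identity and differs from it at 3 positions. The 6 low genes lie wholly inside the copied stretch, *mt-Nd4* lies in it over 63.6% and *mt-Co1* over 31.3% of their length, and the other 5 members lie outside. A read from a gene inside the copy has a second equal place to align, and the study removed reads that map to several places. The first bases of *mt-Co2* are printed here with their nuclear counterpart, since the pair is identical over all 81 bases, and the start of *mt-Nd3* is shown because it holds 1 of the 3 differences, marked by the capital letter. The sequences are read from GRCm39, at chrM:7013-7093 and chr1:24654566-24654646 (minus strand) for *mt-Co2* and at chrM:9421-9501 and chr1:24652158-24652238 (minus strand) for *mt-Nd3*.
mt-Co2, mitochondrial genome: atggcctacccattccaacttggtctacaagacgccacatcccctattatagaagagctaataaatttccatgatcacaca
mt-Co2, nuclear copy: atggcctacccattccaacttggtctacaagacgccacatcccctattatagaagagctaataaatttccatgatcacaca
mt-Nd3, mitochondrial genome: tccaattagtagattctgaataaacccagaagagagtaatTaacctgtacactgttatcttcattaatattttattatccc
mt-Nd3, nuclear copy: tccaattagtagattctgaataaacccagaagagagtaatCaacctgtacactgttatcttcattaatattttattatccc

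Reads of these 6 genes that match both places are not in the count table, and the summed mitochondrial level below is in practice that of the 7 genes outside or partly outside the copy. A second copy, of 365 bases at chr12:97028202-97028566, touches no member. The table also lists 6 pseudogenes inside the copies, which hold 99156 counts in all, against 19933573 counts of the 13 mitochondrial members.

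**Figure D1:**
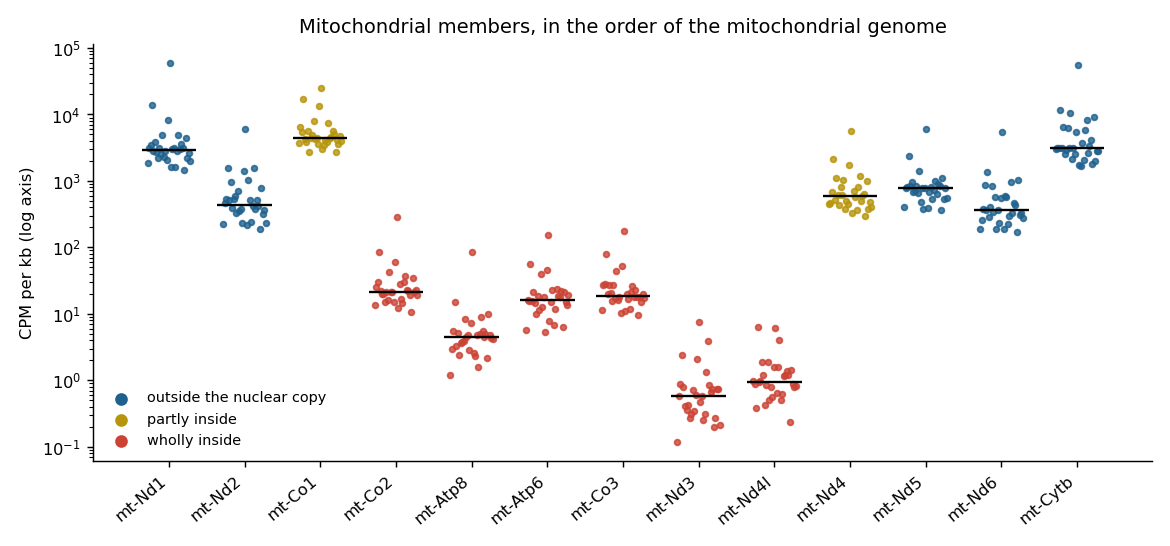
Level of the 13 mitochondrial members in genome order, in CPM per kb of gene on a log axis; each point is 1 of the 30 samples, the line is the median, and colours mark genes outside, partly inside and wholly inside the nuclear copy. The 6 genes wholly inside the copy, *mt-Co2* to *mt-Nd4l*, lie below the others, with *mt-Nd3* lowest at a mean of 0.964 CPM per kb and *mt-Co1* highest at 5955.

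Among nuclear members the levels per length differed by complex and much more by gene. The length is that of all annotated exons of a gene merged, so these levels also depend on how much exon is annotated. It was 616 bases for *Ndufa2* and 892 for *Cox8a*, against 11979 for *Ndufs1* and 11465 for *Ndufb2*. The median of the tested members was 19.89 CPM per kb in complex I, 22.07 in complex II, 46.88 in complex III, 27.6 in complex IV and 38.07 in complex V. The highest member of each complex was *Ndufa2* (312.8 CPM per kb, an accessory subunit), *Sdhd* (39.55, a membrane anchor), *Uqcrh* (156.4, the hinge protein), *Cox8a* (352.7) and *Atp5f1b* (134.4, the catalytic beta subunit of the synthase). The lowest were *Ndufb2* (0.996 CPM per kb), *Sdhc* (19.51), *Uqcr11* (21.79), *Cox6a2* (0.258) and *Atp5mg* (9.714). Complex II was the tightest, with its 4 genes between 19.51 and 39.55 CPM per kb.

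Catalytic and core subunits differed in level. In complex I, *Ndufs1*, which carries iron-sulphur clusters, and *Ndufv1*, which holds the NADH site, had mean levels of 7.90 and 20.5 CPM per kb. Without division by length their order was the reverse, with means of 94.66 and 65.87 CPM. *Sdha* and *Sdhb*, the catalytic pair of complex II, had 22.7 and 21.5. *Uqcrc1*, *Uqcrc2* and the Rieske protein *Uqcrfs1* of complex III had 39.6, 26.7 and 48.1. *Cox5a* and *Cox5b* had 19.0 and 48.2, and *Atp5f1a*, the alpha subunit of the synthase, had 88.3 CPM per kb. *Ndufa4*, counted in complex I by its symbol although its protein is now placed in complex IV, had 22.7, and *Ndufab1*, the mitochondrial acyl carrier protein, had 6.97.

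Of the subunits that exist in tissue forms, these T cells held the widespread form almost alone. *Cox4i1* stood at 167.2 CPM per kb and its lung and hypoxia form *Cox4i2* at 0.0635. *Cox6a1* stood at 305.1 against 0.258 for the heart and muscle form *Cox6a2*, and *Cox6b1* at 137.7 against 0.699 for the testis form *Cox6b2*. *Cox7a2* and *Cox7a2l* stood at 26.5 and 36.9, and the heart and muscle form *Cox7a1* at 0.716. *Cox8a* was the highest member of complex IV, whereas *Cox8b* had 1 count and *Cox8c* 7 counts in all samples together. *Cox7b* stood at 35.0 CPM per kb, and its testis form *Cox7b2* had counts in 1 sample only, 86 in Sensitized replicate 2. The 3 genes for the c-ring of the synthase, which encode the same mature protein, were all present, *Atp5mc3* at 40.5, *Atp5mc1* at 28.1 and *Atp5mc2* at 13.8 CPM per kb. *Ndufa4l2*, *Ndufb11b* and a second gene named *Atp5po* had 0 counts in every sample, where 3 counts, the limit that a count of 0 allows, correspond to 0.0539 to 0.2977 CPM depending on the sample.

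**Figure D2:**
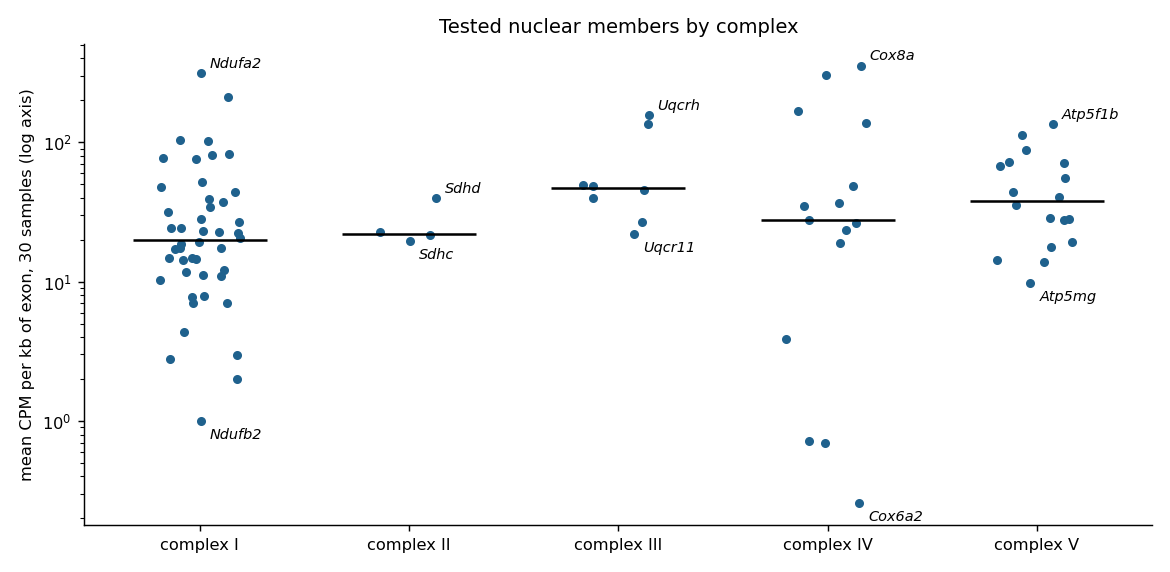
Mean level over the 30 samples of each tested nuclear member, in CPM per kb of exon on a log axis, by complex; each point is 1 gene, the line is the median, and the highest and lowest gene of each complex are named. Complex II spans 19.51 to 39.55 CPM per kb, whereas complex IV spans 0.258 (*Cox6a2*) to 352.7 (*Cox8a*).

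The promoters of the nuclear members were searched for motifs, which the symbol rule did not use. RefSeq promoter windows (GRCm38.p6, 250 bases before to 50 after the start) were matched for 76 of 97 nuclear symbols. The motif of NRF1, GCGCATGCG on either strand, was present for 10 of these 76 members (13.2%) and for 527 of all 27025 genes with a window (1.95%). NRF1 is a transcription factor long known at genes of the respiratory chain. The YY1 motif AAGATGGCG was present in 8 (10.5%, all genes 1.64%), and the ETS or GABP motif CCGGAAGT in 5 (6.58%, all genes 4.31%). Any of the 3 motifs was present for 22 of the 76 members (28.9%) and for 7.48% of all genes. A match is a run of letters in a window and no measure of binding. Of the 10 members, 7 had 2 matches in 1 window, and 5 of these are printed, in which the 2 strands of the motif overlap in the palindrome in capitals, 32, 40, 152, 50 and 103 bases before the start for *Atp5mc2*, *Atp5me*, *Cox6a1*, *Ndufa11* and *Ndufaf4*. These stretches are chr15:102671050-102671119 (minus strand), chr5:108434410-108434479 (minus), chr5:115349081-115349150 (minus), chr17:56717672-56717741 (plus) and chr4:24897940-24898009 (plus).
Atp5mc2: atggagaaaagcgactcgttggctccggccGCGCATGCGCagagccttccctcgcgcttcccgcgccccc
Atp5me: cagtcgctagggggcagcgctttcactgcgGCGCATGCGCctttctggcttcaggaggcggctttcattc
Cox6a1: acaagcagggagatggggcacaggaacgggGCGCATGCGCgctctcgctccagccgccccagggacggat
Ndufa11: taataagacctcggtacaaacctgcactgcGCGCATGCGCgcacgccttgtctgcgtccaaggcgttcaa
Ndufaf4: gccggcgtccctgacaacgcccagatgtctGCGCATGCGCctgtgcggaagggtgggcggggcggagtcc

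The mitochondrial members took a larger mean part of a library than the nuclear ones, and that part varied more between samples. Over all 30 samples the nuclear members held 1.21% ± 0.202 (SD) of the counts, with a range of 0.843 to 1.782%. The mitochondrial members held 2.29% ± 2.08, with a range of 0.841 to 12.19%. The 95% Wilson interval of a share reached at most 0.016 percentage points to either side, which covers counting error only. Between technical libraries of the same sample (23 pairs) the higher share was a median of 1.135 times the lower for nuclear members, at most 1.566 times, and a median of 1.119 times, at most 2.196 times, for mitochondrial members.

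The nuclear share was nearly the same in the 3 samples of each N+P gate and wider elsewhere. Naive samples had 1.374, 1.08 and 1.065%, N+P C1 samples 0.9922, 1.073 and 1.052%, and N+P C5 samples 1.06, 1.082 and 1.059%. Sensitized samples had 1.272, 1.66, 1.172 and 1.196%. The lowest, median and highest values were 0.843, 1.161 and 1.245% for the S+P C4 gate, 1.122, 1.265 and 1.62% for the C5 gate and 1.136, 1.224 and 1.782% for the C7 gate. The mean was 1.17% ± 0.174 for Naive, 1.04% ± 0.042 for the N+P C1 gate, 1.07% ± 0.0132 for N+P C5 and 1.33% ± 0.227 for Sensitized samples (SD). Of the S+P gates, C4 had a mean of 1.12% ± 0.143, C5 one of 1.32% ± 0.198 and C7 one of 1.32% ± 0.263. All 3 N+P C5 samples lay below all 6 S+P C5 samples. This separation was lost when nuclear protein-coding counts were the denominator, with 1.288 to 1.487% against 1.389 to 1.947%, and when rRNA genes were left out, with 1.198 to 1.4% against 1.296 to 1.764%. In the other 8 comparisons made between pairs of groups the nuclear shares overlapped. Among pairs that no comparison sets side by side, the samples of both N+P gates also lay below all Sensitized and all S+P C7 samples. All N+P C1 samples likewise lay below all S+P C5 samples. These separations were lost under both other denominators too. Without rRNA genes the highest N+P C1 and C5 values were 1.372 and 1.4%. The lowest were 1.347% in Sensitized, 1.333% in S+P C7 and 1.296% in S+P C5. Over nuclear protein-coding counts these values were 1.512 and 1.487% against 1.426, 1.425 and 1.389%. The rRNA gene *Rn18s-rs5* alone held 4.8 to 26.4% of a sample's counts.

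Within the nuclear share, complex I held 0.396% ± 0.0706 of all counts, complex V 0.369%, complex IV 0.268%, complex III 0.127% and complex II 0.0543% on average. The proportions were shifted in S+P C4 replicate 3, where complex III held 0.0547% and complex I 0.499%.

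The ranges of the mitochondrial share overlapped between all groups. Naive samples had 1.173, 1.802 and 1.771%, N+P C1 samples 5.298, 1.594 and 2.619%, N+P C5 samples 1.596, 1.313 and 2.466%, and Sensitized samples 1.666, 3.299, 1.272 and 1.848%. The lowest, median and highest values were 0.971, 1.619 and 12.19% for the S+P C4 gate, 1.072, 2.119 and 3.122% for the C5 gate, and 0.841, 1.475 and 2.514% for the C7 gate. The means of 3.17% ± 1.91 for the N+P C1 gate and 3.46% ± 4.35 for S+P C4 were each raised by 1 sample, and without it they were 2.107% and 1.714%. The ratio of nuclear to mitochondrial counts was 0.702 ± 0.287 over all samples, so that mitochondrial counts outnumbered nuclear ones in most samples. It ranged from 0.0912 in S+P C4 replicate 3, which also had the fewest genes, to 1.35 in S+P C7 replicates 1 and 2. By group it was lowest in N+P C1, 0.421 ± 0.244, and highest in S+P C7, 0.931 ± 0.264, and these 2 groups had 0.187, 0.673 and 0.402 against 1.35, 0.709, 1.03, 0.763 and 0.807 in their samples. Gates with the same replicate number may come from the same mouse, which the labels do not state. Within such numbers the mitochondrial share was lower in N+P C5 than in N+P C1 in 3 of 3 and lower in S+P C7 than in S+P C5 in 5 of 5, while S+P C5 was lower than S+P C4 in 3 of 6. The nuclear share was higher in N+P C5 than in N+P C1 in 3 of 3 and higher in S+P C7 than in S+P C5 in 3 of 5. The N+P differences were small for numbers 2 (1.082 against 1.073%) and 3 (1.059 against 1.052%). Without rRNA genes number 2 had the reverse order, 1.37% in C5 against 1.372% in C1. Over nuclear protein-coding counts numbers 1 and 2 did, at 1.487 and 1.454% in C5 against 1.512 and 1.467% in C1. No test was made of these sums.

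**Figure D3:**
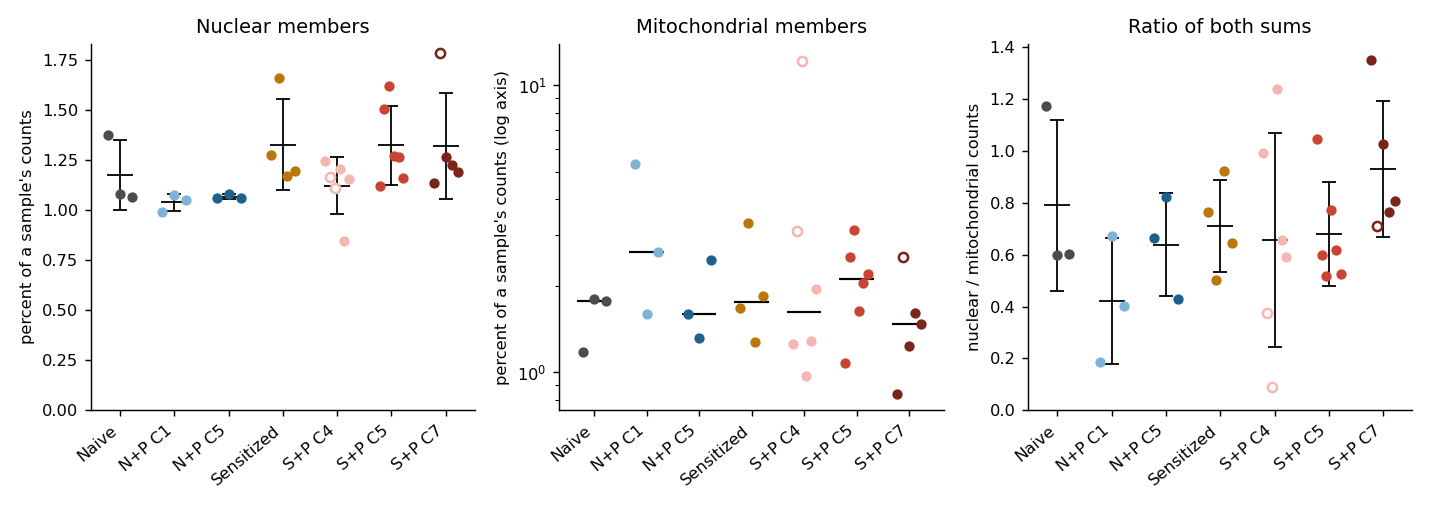
Share of a sample's counts in nuclear members (percent), in mitochondrial members (percent, log axis) and their ratio, by group; each point is 1 sample, bars are the mean and SD except in the log panel, where a line gives the median, and open symbols are the 3 samples with under 9000 genes. The nuclear share spans 0.843 to 1.782% and the mitochondrial share 0.841 to 12.19%, the highest value being an open symbol in S+P C4.

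The inner balance of the mitochondrial genes also varied between samples. The ratio of *mt-Cytb* to *mt-Co1* counts ranged from 0.301 to 1.64 and that of *mt-Nd1* to *mt-Co1* from 0.229 to 1.47. The second ribosomal RNA of the mitochondrion, *mt-Rnr2*, held 0.629 to 10.4% of a sample's counts.

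Single nuclear members varied little between most samples. Among genes with a mean of at least 50 CPM, the SD of log2(CPM + 1) over the 30 samples had a median of 0.57 in 75 nuclear members, 1.03 in 7 mitochondrial members and 1.22 in all 3406 genes. Without the 3 samples under 9000 genes, the medians were 0.43, 0.63 and 0.52. These values describe the members and carry no test. The steadiest were *Ndufa7* (SD 0.31, 91.4 to 267 CPM), an accessory complex I subunit, and *Atp5pb* (SD 0.32), a stalk subunit of the synthase. The least steady were *Uqcrc2* (SD 1.93, 0 to 545 CPM), *Ndufv1* (SD 1.89) and the assembly factor *Ndufaf4* (SD 1.67, 0 to 719 CPM). *Ndufs1* had 0.104 CPM in S+P C4 replicate 2 and 775 CPM in replicate 3 of the same gate, against 39.1 to 124 CPM in the other 4. In the 3 samples under 9000 genes, 11 to 14 of the 91 tested nuclear members had no count, whereas the other 27 samples had 1 to 4 such members.

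For the comparisons, 104 members (91 nuclear, all 13 mitochondrial) and 19657 genes in all were abundant enough to be tested. The other 7 were *Cox4i2*, *Cox7b2*, *Cox8b*, *Cox8c* and the 3 genes without a count. A call required, in edgeR's quasi-likelihood test, a Benjamini-Hochberg adjusted p under 0.1 together with a log2 fold change beyond 0.9 in either direction. Fold changes below are edgeR estimates on the log2 scale. Their standard errors (SE) were computed back from the test, as the absolute log2 fold change over the square root of its F value. Such an SE is unreliable for a fold change near 0, and the lowest was 0.0 in S+P C4 and in S+P C7 vs. Sensitized. The labels number the replicates without naming the animal behind each, so p-values measure the spread between these samples. Comparisons that involve the same control samples are not independent of each other.

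By edgeR, 0 of the 104 members were called in any of the 10 comparisons, and 0 to 5 of them per comparison had an unadjusted p under 0.05. DESeq2 called 2 members in S+P C4 vs. Sensitized, 1 in S+P C7 vs. Sensitized and 0 in the other 8 comparisons. Among the 19657 genes tested, edgeR called 0 to 30 per comparison. DESeq2 was run on all genes with a count, a different set with its own filter, and called 623 to 1098. The SE of a nuclear member's log2 fold change had a median of 0.44 to 0.59 in the 9 comparisons between pairs of groups, and that of a mitochondrial member 0.73 to 0.99. With errors of this size the absence of calls does not show that the groups were alike.

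**Figure D4:**
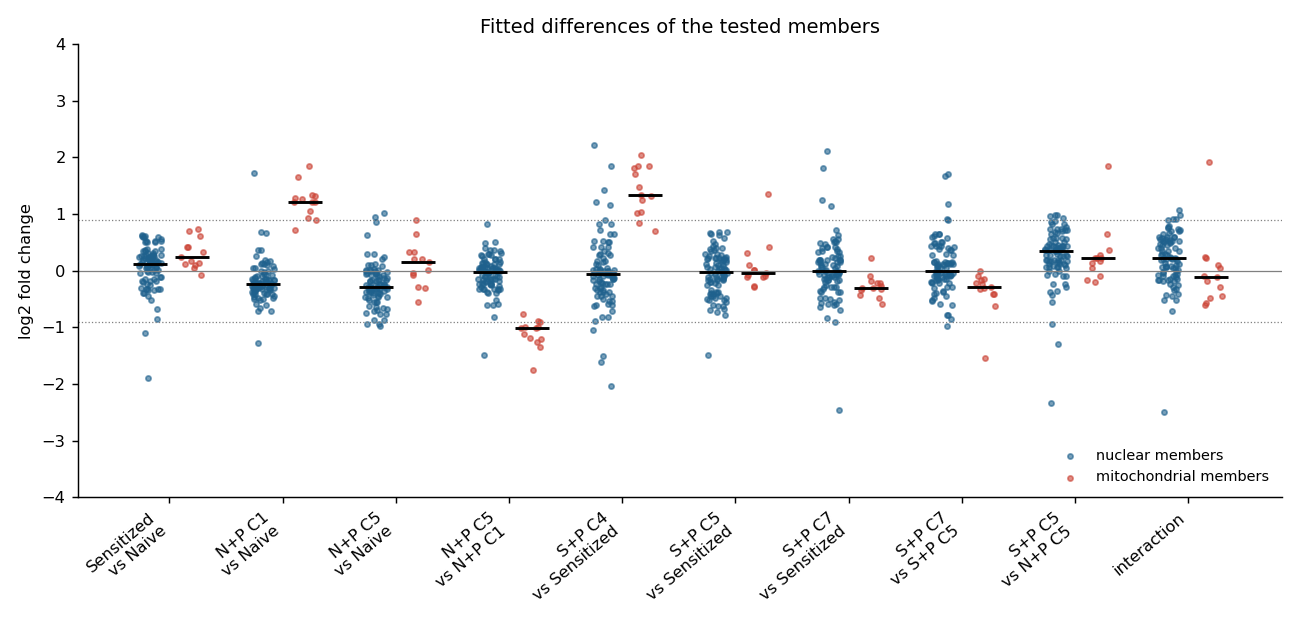
Log2 fold change (edgeR) of the 91 nuclear and 13 mitochondrial members tested in each comparison; each point is 1 gene, the black line is the median, dotted lines mark 0.9 in either direction, and 1 member lies beyond the axis limit of 4 in 6 of the comparisons. Mitochondrial members lie above 0 as a block in N+P C1 vs. Naive (median 1.21) and S+P C4 vs. Sensitized (1.33) and below 0 in N+P C5 vs. N+P C1 (-1.02), while nuclear medians stay between -0.28 and 0.35.

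Sensitized vs. Naive addresses what memory formed by graft rejection carries. Nuclear members had a median log2 fold change of 0.11, with 60 of 91 above 0, and mitochondrial members one of 0.24, with 12 of 13 above 0. All genes tested had a median of 0.04, with 51.86% above 0. Both thresholds were met by 0 members (all genes 0.153%), and 0 had an unadjusted p under 0.05 (all genes 7.82%). Without Sensitized replicate 2, the sample with the highest nuclear and mitochondrial share of its group, both medians changed sign, to -0.08 and -0.12. The nuclear median was 0.27 without Naive replicate 1 and the mitochondrial one 0.45 without Naive replicate 3. Scaling by library size alone moved the median of all genes up by 0.14 and the nuclear median to 0.26.

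N+P C1 vs. Naive compares cells that were PD1- after a pregnancy with naive cells. The 2 genomes lay on opposite sides of 0: all 13 mitochondrial members had a positive log2 fold change, with a median of 1.21, and 73 of 91 nuclear members a negative one, with a median of -0.24, which was -0.09 without Naive replicate 1. The median of all genes was 0.00. Calls numbered 0 (all genes 0%), and 1 member had an unadjusted p under 0.05 (all genes 3.23%). *mt-Nd1* (chrM:2751-3707) had 1757, 2976 and 3289 CPM in Naive and 13240, 2727 and 3641 CPM in N+P C1. N+P C1 replicate 1 was far above the other samples, which overlapped, and the estimate was 1.29 ± 0.94 (edgeR, p = 0.183, adjusted p = 1.0).

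*mt-Co1* had 5849, 9933 and 8375 CPM in Naive and 26820, 6718 and 6017 CPM in N+P C1 samples. *mt-Cytb* had 3408, 3577 and 3635 CPM in Naive and 13550, 3588 and 7464 CPM in N+P C1. *mt-Nd5*, a complex I subunit, had 742, 1452 and 1455 CPM in Naive and 4374, 1507 and 1744 CPM in N+P C1. For *mt-Nd5* alone among the 13 the groups did not overlap, at a log2 fold change of 1.06 ± 0.67 (edgeR, p = 0.124), where 4.22% of all genes were higher in every N+P C1 sample. Without N+P C1 replicate 1 the mitochondrial median was 0.39. With the 3 samples under 9000 genes left out of the fit, none of which is in these 2 groups, 6 mitochondrial members had an unadjusted p under 0.05, *mt-Nd1* among them (1.29 ± 0.43, p = 0.00572, adjusted p = 0.817), against 4.35% of all genes. The 1 member with an unadjusted p under 0.05 in the full fit was *Cox7a1*, which had 62, 1 and 0 counts in Naive and 0 in all of N+P C1, a difference made by 1 sample. On the nuclear side, 6 members were lower in every N+P C1 sample than in every Naive sample (all genes 3.08%), namely *Ndufab1*, *Ndufaf2*, *Uqcr10*, *Atp5mc2*, *Atp5mf* and *Atp5mj*.

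N+P C5 vs. Naive compares the PD1+CD73+ cells of the same kind of mouse with naive cells. Nuclear members lay mostly below 0, 74 of 91 with a median of -0.28, whereas the mitochondrial median was 0.16 with 8 of 13 above 0, and -0.15 without Naive replicate 1. All genes had a median of 0.00 with 46.57% above 0. The negative sign held in every complex: 36 of 46 members of complex I (median -0.24), 4 of 4 of complex II (-0.55), 7 of 8 of complex III (-0.28), 11 of 15 of complex IV (-0.09) and 16 of 18 of complex V (-0.34). Both thresholds were met by 0 members (all genes 0.0407%), and 0 had an unadjusted p under 0.05 (all genes 5.33%). The nuclear median was -0.12 without Naive replicate 1, a sample that rests on 1 library and had the highest nuclear share of its group, and -0.10 when scaled by library size alone. Every alternative kept it below 0.

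Of the 91 nuclear members, 16 were lower in every N+P C5 sample than in every Naive sample, against 5.48% of all genes tested. They were *Ndufa5*, *Ndufa6*, *Ndufa9*, *Ndufa10*, *Ndufab1*, *Ndufaf2*, *Ndufb3* and *Ndufs1* of complex I, *Sdha* of complex II, *Uqcrc2* of complex III, and *Atp5f1a*, *Atp5f1e*, *Atp5mc2*, *Atp5mf*, *Atp5mj* and *Atp5po* of complex V. None was in complex IV. *Ndufa10* (chr1:92361375-92401613), an accessory subunit of complex I, had 246, 172 and 156 CPM in Naive and 103, 99.3 and 97.5 CPM in N+P C5. The 3 N+P C5 samples were close together and all below Naive, at a log2 fold change of -0.94 ± 0.49 (edgeR, p = 0.066, adjusted p = 0.765). *Atp5mj* (chr12:111925397-111933510), a small subunit of the synthase, had 166, 136 and 145 CPM in Naive and 79.4, 95.2 and 69.9 CPM in N+P C5, a value of -0.87 ± 0.59 (edgeR, p = 0.15). *Sdha* had 212, 277 and 233 CPM in Naive and 197, 175 and 207 CPM in N+P C5 (-0.32 ± 0.48, edgeR p = 0.511).

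The opposite order was seen for 3 nuclear members, a smaller share than the 7.4% of all genes. *Atp5if1* (chr4:132257215-132262823), whose product blocks the synthase from running backwards and hydrolysing ATP, had 28.3, 23.9 and 23.0 CPM in Naive samples. The N+P C1 samples had 20.6, 23.2 and 38.2 CPM, and the N+P C5 samples 48.8, 45.0 and 50.5 CPM. All N+P C5 samples lay above all samples of the other 2 groups, and the log2 fold change against Naive was 0.94 ± 0.77 (edgeR, p = 0.229, adjusted p = 1). *Ndufb8* and *Atp5pf* were the others, at 0.30 ± 0.59 and 0.29 ± 0.40. None of these values passed a threshold.

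N+P C5 vs. N+P C1 compares the 2 gates of naive mothers. Mitochondrial members were below 0 in 13 of 13 cases, with a median of -1.02, whereas nuclear members were evenly split, 44 of 91 above 0 with a median of -0.02. All genes had a median of 0.00. Calls numbered 0 (all genes 0.00509%), and 1 member, *Cox7a1*, had an unadjusted p under 0.05 (all genes 4.31%), from 21, 64 and 0 counts in N+P C5 and none in N+P C1. Without N+P C1 replicate 1 the mitochondrial median was -0.31, and with the replicate number as a block it was -0.82. *mt-Nd1* had 2639, 2092 and 3029 CPM in N+P C5, which overlapped with N+P C1 at 2727 CPM.

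S+P C4 vs. Sensitized asks the same of memory cells that are PD1- after pregnancy. Here too the mitochondrial members lay above 0, 13 of 13 with a median of 1.33, and nuclear members did not, 36 of 91 with a median of -0.06 against -0.14 for all genes, and 0.17 without Sensitized replicate 2. Both thresholds were met by 0 members (all genes 0.00509%), and 5 had an unadjusted p under 0.05 (all genes 12.7%). Of these 5, 4 were mitochondrial complex I genes. *mt-Nd1* had 2470, 4638, 2196 and 2738 CPM in Sensitized and 1541, 2943 and 57160 CPM (lowest, median, highest) in S+P C4. S+P C4 replicate 3 alone was far above the rest, replicate 2 followed at 7781 CPM, and the other 4 overlapped with Sensitized. The log2 fold change was 2.04 ± 0.79 (edgeR, p = 0.0165, adjusted p = 0.317), and *mt-Nd2*, *mt-Nd4* and *mt-Nd6* had 1.84 ± 0.68, 1.33 ± 0.57 and 1.81 ± 0.72, with adjusted p between 0.317 and 0.329.

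These mitochondrial values depended on the libraries of few genes. Without S+P C4 replicate 3 the mitochondrial median was 0.05 and *mt-Nd1* stood at 0.18 (p = 0.667). Without the 3 samples under 9000 genes the median was -0.52, with 3 of 13 above 0, and without all samples of 1 library, an alternative chosen after seeing the data, it was -0.37, again with 3 of 13 above 0. Under that alternative 14 of 92 nuclear members were above 0. Of the 92, 11 had an unadjusted p under 0.05, all with a negative value, beside 9.14% of all genes in either direction. Among the 11 were *Atp5f1a* (-0.63 ± 0.23, edgeR p = 0.0107, adjusted p = 0.468), *Atp5f1c* (-0.67 ± 0.21, p = 0.00372, adjusted p = 0.468) and *Ndufa5* (-1.02 ± 0.32, p = 0.00412, adjusted p = 0.468).

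*Cox4i1* (chr8:121391505-121400950), the regulatory subunit through which ATP slows complex IV, was the nuclear gene of the 5. It had 598, 761, 522 and 506 CPM in Sensitized and 144, 393 and 544 CPM in S+P C4. Replicates 4 and 6 of S+P C4, at 544 and 537 CPM, lay within the Sensitized range, the other 4 lay below it, and the value was -0.63 ± 0.29 (edgeR, p = 0.0378, adjusted p = 0.363). With 1 sample left out it ran from -0.73 to -0.45, at an edgeR p of up to 0.131. The value of -0.45 was that without S+P C4 replicate 3. Its unadjusted p was not under 0.05 without the samples under 9000 genes, nor without the samples of 1 library. DESeq2 called *mt-Nd1* (2.14, adjusted p = 0.0854) and *Cox5b-ps* (2.28, adjusted p = 0.0265, edgeR 2.21, adjusted p = 0.553). *Cox5b-ps* is annotated as protein-coding but is a near copy of *Cox5b*, so reads may be split between them. It had 9 to 61 counts in Sensitized and 28 to 86 in S+P C4 except for 202 in replicate 3.

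S+P C5 vs. Sensitized compares PD1+CD73+ memory cells after pregnancy with memory cells. Values of both genomes were split around 0: 44 of 91 nuclear members were above 0 with a median of -0.03, and 6 of 13 mitochondrial members with a median of -0.05, beside -0.01 for all genes. Without Sensitized replicate 2 these medians were 0.18 and 0.32. Calls numbered 0 (all genes 0.0712%), and 1 member had an unadjusted p under 0.05 (all genes 13%). This was *Cox6a2*, which had 43 and 48 counts in S+P C5 replicates 1 and 6 and 0 in the other 4 and in all Sensitized samples. *Ndufb11* (chrX:20481563-20484457), an accessory subunit of complex I, had 106, 308, 139 and 112 CPM in Sensitized and 66.0, 80.3 and 179 CPM in S+P C5, at -0.73 ± 0.43 (edgeR, p = 0.0973, adjusted p = 0.548). Its groups overlapped through S+P C5 replicates 2 and 3, at 179 and 129 CPM, both of which rest on 1 library. With the samples of 1 library left out, the remaining 4 S+P C5 samples all lay below Sensitized and *Ndufb11* was the only member called in any comparison, at -1.17 ± 0.28 (edgeR, p = 0.000271, adjusted p = 0.0461), where 227 of 23306 genes were called. Under the same setting 28 of 92 nuclear members were above 0.

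S+P C7 vs. Sensitized compares the PD1+CD73- cells with memory cells. Nuclear members were evenly split, 46 of 91 above 0 with a median of 0.00, and 12 of 13 mitochondrial members were below 0 with a median of -0.31, where all genes had 0.00. Without Sensitized replicate 2 the medians were 0.21 and 0.12, and without S+P C7 replicate 3 they were -0.13 and -0.57. The even split of the nuclear members was not kept without the 3 samples under 9000 genes. Then 26 of 92 nuclear and 0 of 13 mitochondrial members were above 0, where all genes had a median of 0.06. Without the samples of 1 library these counts were the same, where all genes had 0.1. Calls numbered 0 (all genes 0.0305%), and 1 member had an unadjusted p under 0.05 (all genes 10.2%). This was *Atp5if1*, with 16.5, 42.9, 32.4 and 35.6 CPM in Sensitized and 32.4, 311, 65.1, 75.4 and 77.4 CPM in S+P C7. S+P C7 replicate 3, the sample with few genes and with the erythroid and NK cell signal, was highest, 3 other samples lay above Sensitized, and the merged replicates 1 and 2 lay within its range. The log2 fold change was 1.82 ± 0.66 (edgeR, p = 0.00942, adjusted p = 0.473), and DESeq2 called it (1.78, adjusted p = 0.0331). Without S+P C7 replicate 3 it was 0.97 (p = 0.0982), and without all samples of 1 library 0.97 ± 0.32 (p = 0.00591, adjusted p = 0.302). *Cox7a2l* (chr17:83765970-83824759), known for a part in joining complexes III and IV, had 528, 423, 410 and 448 CPM in Sensitized and 433, 226, 234, 337 and 394 CPM in S+P C7. Only 1 S+P C7 sample reached the Sensitized range, at a value of -0.48 ± 0.25 (edgeR, p = 0.0654, adjusted p = 0.544).

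S+P C7 vs. S+P C5 compares the PD1+ gates of sensitized mothers. Mitochondrial members were below 0 in 13 of 13 cases with a median of -0.29, whereas 46 of 91 nuclear members were above 0 with a median of 0.00. All genes had 0.02. The mitochondrial median was -0.06 without the merged S+P C7 replicates 1 and 2 and -0.57 without replicate 3. With the replicate number as a block it was -0.31. Of the 13 mitochondrial members, 6 then had an unadjusted p under 0.05 (2.39% of the 12987 genes tested there). The main fit, which has no block, had 0 of 13. It also tested another set of 19657 genes, so the difference cannot be assigned to the block alone. The 13 genes share 1 genome, and the 6 need not be separate results. In the main fit calls numbered 0 (all genes 0%). There, 2 members had an unadjusted p under 0.05 (all genes 12.7%), the sparsely counted *Cox6a2* and *Atp5if1*. *Atp5if1* had 23.1, 51.6 and 68.8 CPM (lowest, median, highest) in S+P C5, overlapping with S+P C7, at 1.17 ± 0.56 (edgeR, p = 0.0458, adjusted p = 0.376). Without S+P C7 replicate 3 this was 0.33 (p = 0.52), and with the block 0.53 (p = 0.375).

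S+P C5 vs. N+P C5 compares the same PD1+CD73+ gate between sensitized and naive mothers. Nuclear members lay mostly above 0, 76 of 91 with a median of 0.35, and mitochondrial members had a median of 0.22 with 10 of 13 above 0, which was -0.03 without S+P C5 replicate 3. All genes had a median of 0.00 with 49.68% above 0. The positive sign was found in 40 of 46 members of complex I (median 0.32), 2 of 4 of complex II (0.15), 7 of 8 of complex III (0.37), 12 of 15 of complex IV (0.44) and 15 of 18 of complex V (0.36). Calls numbered 0 (all genes 0%), and 1 member had an unadjusted p under 0.05 (all genes 5.88%). *Cox7a2* (chr9:79653049-79667162), the widespread form of a complex IV subunit, had 77.5, 146 and 98.6 CPM in N+P C5 and 122, 149 and 366 CPM in S+P C5. S+P C5 replicates 2 and 3 were highest at 332 and 366 CPM, replicate 4 at 154 CPM was also above all N+P C5 samples, and the other 3 overlapped with N+P C5 replicate 2, at a log2 fold change of 0.96 ± 0.44 (edgeR, p = 0.0344, adjusted p = 0.836).

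*Cox8a* and *Cox7c*, also of complex IV, had the same 2 samples on top. *Cox8a* had 242, 217 and 134 CPM in N+P C5 and 291, 622, 497, 277, 300 and 177 CPM in S+P C5 (0.87 ± 0.48, edgeR p = 0.0818). *Cox7c* had 86.6, 123 and 91.6 CPM in N+P C5 and 99.1, 263, 299, 171, 146 and 113 CPM in S+P C5 (0.86 ± 0.46, edgeR p = 0.0691). With the samples of 1 library left out, which removes both, the nuclear median was 0.16 with 78 of 92 above 0, and *Cox7a2* stood at 0.36 (p = 0.217). The direction of the nuclear members held in every alternative, from 0.16 to 0.39.

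The change with pregnancy in memory cells minus that in naive cells, (S+P C5 vs. Sensitized) minus (N+P C5 vs. Naive), tests whether the 2 differ. Nuclear members had a median of 0.23, with 64 of 91 above 0, against -0.06 for all genes, and mitochondrial members -0.11, with 5 of 13 above 0, which was 0.29 without Sensitized replicate 2. Both thresholds were met by 0 members (all genes 0.0254%), and 0 had an unadjusted p under 0.05 (all genes 6.42%). The nuclear median was -0.04 without the samples of 1 library, so that the direction was not kept. Scaling by library size alone lowered the median of all genes by 0.12 and gave a nuclear median of 0.13.

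**Figure D5:**
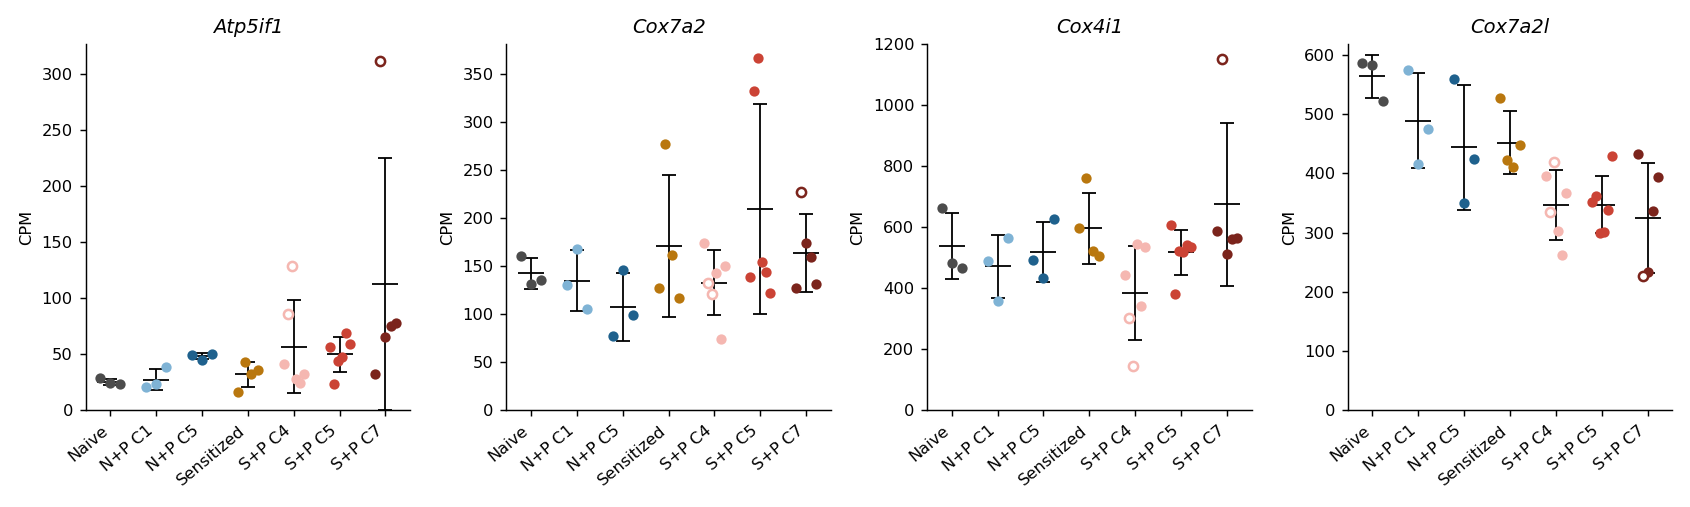
Level in CPM of *Atp5if1*, *Cox7a2*, *Cox4i1* and *Cox7a2l* by group; each point is 1 sample, bars are the mean and SD, and open symbols are the 3 samples with under 9000 genes. *Atp5if1* is above all Naive samples in all N+P C5 samples and peaks at 311 CPM in S+P C7 replicate 3, and *Cox4i1* is lowest in S+P C4 replicate 3 at 144 CPM.

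Genes that serve the same machinery were measured from lists of other names. None of them had a member called by edgeR in any comparison, and each list also had 0 to 4 members per comparison with an unadjusted p under 0.05. Assembly factors and carriers of the respiratory chain (41 genes, 39 tested) had 17 members above 0 and 22 below in N+P C5 vs. Naive, with a median of -0.07. The tricarboxylic acid cycle and pyruvate dehydrogenase (16 genes), which feed NADH and succinate to the chain, had 14 of 16 below 0 in both N+P C1 vs. Naive and N+P C5 vs. Naive, with medians of -0.20 and -0.22. Fatty acid oxidation (13 genes) was split, with 7 of 13 below 0 in both. Factors of mitochondrial gene expression and its nuclear regulators (20 genes) had 16 of 20 below 0 in S+P C4 vs. Sensitized, with a median of -0.60 where all genes had -0.14. Their summed level was 183.2 CPM in S+P C4 replicate 3, 434.2 to 777.6 CPM in the rest of that gate and 595.3 to 1008 CPM in Sensitized. The mitochondrial transcripts were above 0 in this fit, but at a median of -0.52 without the 3 samples under 9000 genes. The part of those samples in the list's values was not tested. *Myc*, a regulator in that list, had mean levels of 147.0 CPM in Sensitized and 22.02 CPM in S+P C7 (-2.74 ± 1.22, edgeR p = 0.0315, adjusted p = 0.473).

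Proliferation genes stood higher in S+P C7 than in Sensitized samples without passing the test. All 17 lay above 0 in S+P C7 vs. Sensitized, with a median of 1.79 and 4 with an unadjusted p under 0.05, and their summed level had a median of 2468 CPM in S+P C7 and 887.4 CPM in Sensitized. *Mki67* had a mean of 280.4 CPM against 24.9 CPM (3.49 ± 1.24, edgeR p = 0.00838, adjusted p = 0.473). In the same comparison the nuclear members had a median of 0.00 and the mitochondrial ones -0.31, and the part of proliferation in these values was not tested.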

How the data were processed

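RNA-seq libraries of 200 sorted TFGS cells were made by SmartSeq2. Per the submitters' processing notes, reads were trimmed with cutadapt 3.4, aligned to GRCm39 with STAR 2.6.1b and counted with featureCounts 2.0.1. The authors deposited raw counts per gene, with multi-mapping reads removed, and the strand option and annotation release are not given in the sources used here. Members and lists were chosen with earlier results of these data known.

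Technical libraries were summed per replicate and gate. Symbols and exon lengths came from GENCODE M39, which held 54749 of the 55359 gene IDs. Complexes were assigned by symbol. CPM are scaled by TMM effective library sizes, whereas shares are of raw totals. Genes passing filterByExpr (minimum count 10) were tested with edgeR 4.0.16 (TMM, robust quasi-likelihood, all 7 groups in 1 fit), in R 4.3.3, after a test on simulated data. As an alternative, DESeq2 1.42.0 was run on all genes with a count, with its own filter in place of filterByExpr. Nuclear copies of mitochondrial sequence were found with BLAST 2.17.0 (at least 300 bases, 98% identity).

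Named genes were any called, the mitochondrial genes, core subunits, tissue forms, the highest of each complex, and non-overlapping members with an unadjusted p under 0.05 (there were none). Other genes named were chosen after their values were seen. The values of 1 core subunit are not reported here.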

Additional observations from a re-analysis of the deposited data

Results flagged for a closer look

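Of 40 groups of 4 to 6 samples examined over 10 measures, 9 held a sample far from the others of its group. The rule marks about 1 in 20 groups of independent normal values, which is no yardstick here. The measures overlap, as *mt-Nd1* and *mt-Cytb* are part of the mitochondrial share, and the genes were picked from those described above. The mitochondrial share was 12.19% of counts in S+P C4 replicate 3. The same sample had 57160 CPM of *mt-Nd1* and 63750 CPM of *mt-Cytb*, and it is the one with the fewest genes detected (7436). S+P C7 replicate 3, with 7879 genes and an erythroid marker sum of 19870 CPM, was apart in 4 measures: a nuclear share of 1.782%, 10470 CPM of *mt-Cytb*, 1151 CPM of *Cox4i1* and 310.9 CPM of *Atp5if1*. S+P C4 replicate 5 had a nuclear share of 0.843%, below the rest of its gate. Sensitized replicate 2 had 12000 CPM of *mt-Cytb*. The part of low gene numbers in these values was not tested.

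The 6 pseudogenes inside the nuclear copies of the mitochondrial genome, which are no members, held 99156 counts over all samples, above the limit that a count of 0 allows. Whether these reads arose from the nucleus or from the mitochondrion cannot be told apart in a count table.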

How the results depend on the processing

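No member was called by edgeR in any comparison with another normalization, filter, threshold, handling of repeated libraries or choice of groups, or with any 1 replicate left out (0 to 0 members called in each comparison). Exceptions were DESeq2, which called 2 members in S+P C4 vs. Sensitized and 1 in S+P C7 vs. Sensitized, and the fit without samples of 1 library, chosen after seeing the data, which called 1 in S+P C5 vs. Sensitized. *mt-Nd1* and *mt-Nd4* in S+P C4 vs. Sensitized turned to -0.33 and -0.26 without the 3 samples under 9000 genes, and to -0.25 and -0.20 without the samples of 1 library; the cause was not tested. Calls among all genes ranged from 0 to 30 by edgeR, 623 to 1098 by DESeq2, 0 to 142 with only the groups compared, 0 to 199 without the 3 samples and 1 to 227 without samples of 1 library.

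With the replicate number as a block, 0 members were called in the 9 comparisons that allow it, and the mitochondrial median in S+P C4 vs. Sensitized was 0.45. Fits with a block also tested fewer genes than the main fit, so they differ from it in more than the block. Deviations of same-numbered samples correlated at -0.04 to 0.16, and no comparison had every pair over 0.1. Column names give gates of 1 number the same prefix, but no label states that they share a mouse, so pairing is not settled. No block could be put into the difference between the 2 pregnancy changes, and removing the mitochondrial genome before normalization leaves no mitochondrial value.

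Shares depend on the denominator. Without rRNA genes the mean nuclear share was 1.511% for Naive, 1.298 and 1.323% for the N+P gates C1 and C5, and 1.435 and 1.557% for the S+P gates C4 and C5, and the mitochondrial share was 2.04% in Naive. Over nuclear protein-coding counts the nuclear share was 1.599% for Naive, 1.415 and 1.41% for the N+P gates C1 and C5, 1.673% for Sensitized, and 1.59, 1.676 and 1.681% for the S+P gates C4, C5 and C7, and the mitochondrial share was 2.164% in Naive.

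Counting error is small beside the spread between samples of 200 cells amplified without molecular identifiers, and reads of the 6 mitochondrial genes inside the nuclear copy that match both places are not counted.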
